A study of Drosophila melanogaster with 12 samples.

Results

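Double-stranded RNA against the Drosophila gene barc was compared with double-stranded RNA against mCherry, a reporter sequence that flies lack, in the S2 cell line. Of the 14210 genes listed for each library, the 7603 with a successful estimate in all 8 S2 libraries and a mean level of at least 1 FPKM (fragments scaled to transcript length in kilobases and to library size) were analysed. Another 80 genes had a failed or low-data estimate in some library, and 6527 lay under the mean, 1929 of them at 0 in all 8 libraries. The lowest genes kept were CG14760 and CG4676 with means of 1.0002 and 1.0007 FPKM, and the highest left out were rols and CG9184 with 0.9994 and 0.9973 FPKM.

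Both groups of cells were grown in Schneider's medium with 10% heat-inactivated serum and exposed to the double-stranded RNA for 7 days. Each group had 4 libraries of polyadenylated RNA, called dsmCherry 1 to 4 and dsbarc 1 to 4, and the labels name a single RNA against barc, so that loss of barc and other effects of that RNA cannot be told apart. In the sample descriptions libraries 1 and 2 of both groups carry the number 1 and libraries 3 and 4 the number 2, here called set 1 and set 2. What the number stands for, and whether libraries came from separate cultures, is not given, so p-values rest on library-to-library spread alone, and that spread may be technical. The series also holds neuroblasts (type I, the neural stem cells of the larval brain) sorted from flies with dicer2, asense-Gal4 and a membrane GFP, reared at 29 °C with an empty landing site or a barc RNAi transgene (2 libraries each), which serve below only for a difference between systems.

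The protein encoded by barc, Barricade, is the fly counterpart of human Tat-SF1. In human cells Tat-SF1 binds the U2 small nuclear ribonucleoprotein, the splicing particle that recognises the branch site near the end of each intron, and it was first described as a cofactor of transcription elongation. S2 cells derive from late fly embryos, resemble the macrophage-like blood cells of the fly, take up RNA from the medium and are widely used for RNA interference.

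The deposited values imply between 14.6 and 28.6 × 1e6 fragments per library, with all 4 dsbarc libraries (14.6 to 18.3) below all 4 dsmCherry libraries (18.8 to 28.6). The number of genes at 1 FPKM or more was 7316, 7313, 7535 and 7580 in dsmCherry 1 to 4 and 7560, 7554, 7720 and 7739 in dsbarc 1 to 4. Within each set the dsbarc libraries thus had more genes above that level at the lower depth. Of 12 markers of blood cells and S2 cells, 11 were listed under their names and all 11 reached a mean of 1 FPKM, among them the blood cell transcription factor genes srp (29.1 to 50.3 FPKM) and ush (39.1 to 70.1 FPKM) and the scavenger receptor gene crq (277 to 370 FPKM). Some of the 11 were low in 1 set. Hml lay between 0.110 and 0.408 FPKM in set 1 and between 2.91 and 9.37 FPKM in set 2. Sr-CI was at 0.720 and 0.937 FPKM in the controls of set 1, and eater was as low as 1.33 FPKM there. The neuroblast genes ase and wor, the glial gene repo and the fat body gene Lsp1alpha stayed under 0.1 FPKM in every library. Not all markers of other cell types were near 0. A mean of 1 FPKM was reached by 2 of 3 glial, 2 of 3 epithelial and 2 of 3 listed neuronal markers. It was also reached by 1 of 3 muscle, 1 of 5 neuroblast (insc) and 1 of 4 germline markers (osk). The glial gene moody lay between 11.6 and 22.8 FPKM and the neuronal gene elav between 6.65 and 16.1 FPKM. The 2 controls of set 2 stood further apart than any other pair within a group and set: on the first principal components they lay at -38.6 and -26.5 (61% of the variance) and 1.22 and 12.6 (27.7% of the variance), against 0.22 and 2.72, and 29.6 and 31.0, for the dsbarc libraries of that set. Counts of called genes below are therefore also given without single libraries wherever 1 library moved them by more than 1.5 times.

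The targeted transcript checked the labels. In dsmCherry 1 to 4 barc (FBgn0037081, arm 3L, 21413483 to 21426267 in the coordinates of the tables) stood at 21.1, 23.9, 20.9 and 22.3 FPKM, and in dsbarc 1 to 4 it stood at 7.32, 4.27, 3.02 and 3.22 FPKM. Every dsbarc library lay below every control, and dsbarc 1 kept the highest remaining level. On the log2(FPKM + 1) scale, on which all changes here are given as dsbarc minus dsmCherry, barc changed by -2.14 (SE 0.18, limma adjusted p = 9.25e-05), with -1.82 in set 1 and -2.46 in set 2. The locus overlaps rgn and CG33288, whose fragments may be included in its level.

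The depletion went with a broad change of the transcriptome. In a limma fit with the set as a block, 3496 genes passed a Benjamini-Hochberg adjusted p of 0.05 (46% of the genes tested), 1556 of them higher (20.5%) and 1940 lower (25.5%) in dsbarc cells, and 4206 passed an unadjusted p of 0.05. "Called", "rose" and "fell" refer to this test. Of the genes tested, 426 rose at least 2-fold on this scale (5.6%) and 413 fell at least 2-fold (5.43%), and the median absolute change of called genes was 0.65. The 4 dsbarc libraries lay above all 4 controls for 1070 genes (14.1%) and below them for 1368 (18%). The median change over all genes was -0.06. Rescaling to TPM, in which every library has the same total, moved that median by 0.118, and the share of called genes that were higher went from 44.5% to 57.3%, or to 49.0% with quantile normalisation, so that the balance between small rises and small falls rests on the scaling. A block on replicate numbers 1 to 4 in place of the set treats same-numbered libraries as pairs, which the labels do not state. This block is named below where it changed a count by more than 1.5 times or ended the call of a named gene. It ended the call of 12 of the genes named from the lists: Cyt-c-p, Lsd-1, mdy, CG13298, SmG, Smg5, TfIIS, polo, tum, Rpt4, Aats-pro and Aats-ala-m. The count of genes that fell was 1279 without dsbarc 2. The plot of level against change shows rises and falls at all levels, with chaperone genes among the large falls.

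**Figure D1:**
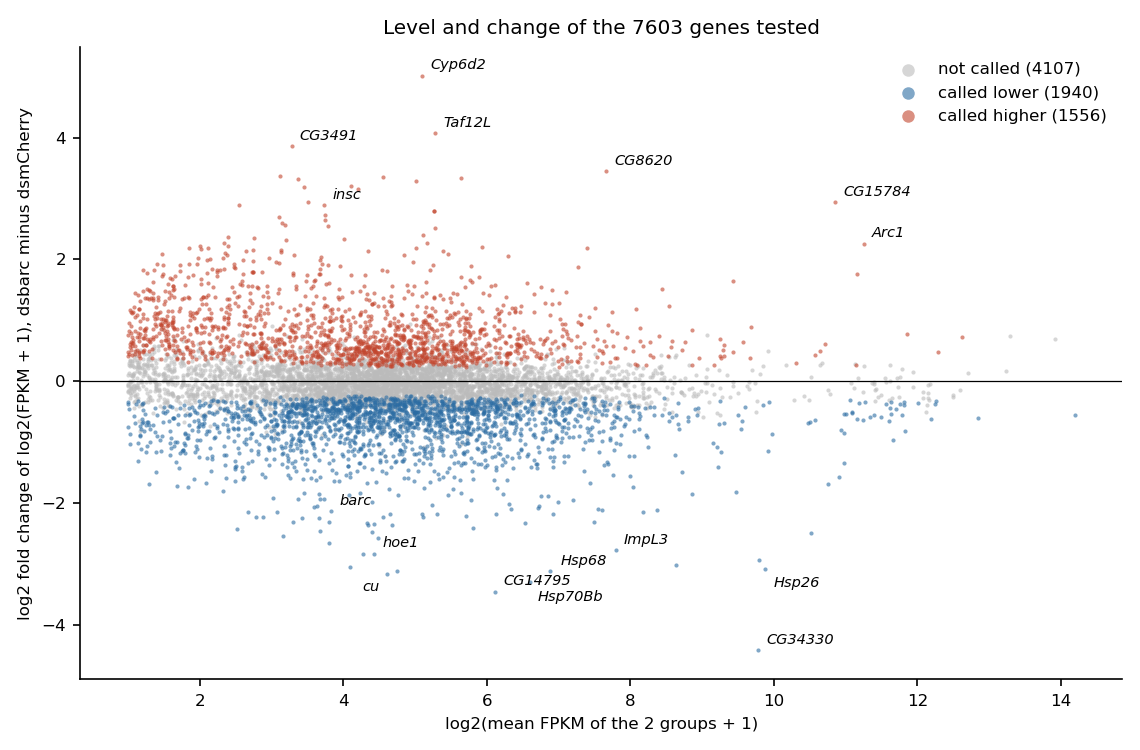
Each point is 1 of the 7603 genes tested; the x axis is the log2 of the mean FPKM of the 2 groups plus 1 and the y axis the log2 fold change of log2(FPKM + 1), dsbarc minus dsmCherry. Red points were called higher (1556), blue points lower (1940) and grey points not called; Cyp6d2 has the largest rise (5.02) and CG34330 the largest fall (-4.42).

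Among the 15 named genes with the largest rises, the cytochrome P450 gene Cyp6d2 came first. It stood at 1.28, 0.945, 0.774 and 1.12 FPKM in dsmCherry 1 to 4 and at 77.9, 79.6, 50.1 and 55.3 FPKM in dsbarc 1 to 4. A gene near 1 FPKM in every control was thus well expressed in every dsbarc library, a change of 5.02 (SE 0.13, limma adjusted p = 3.73e-07) that was close in both sets (5.24 and 4.79). Cytochrome P450 enzymes oxidise hormones, fatty acids and foreign compounds.

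Among the other large rises were CG15784, the most abundant of the 15, and CG8620. Levels of CG15784 were 653, 591, 270.1 and 248 FPKM in control libraries and 4268, 4276, 2157 and 2332 FPKM in dsbarc cells, a change of 2.95 (SE 0.10, limma adjusted p = 1.38e-06). Levels of CG8620 were 54.6, 56.1, 8.09 and 5.75 FPKM in control libraries and 695, 631, 77.6 and 79.4 FPKM in dsbarc cells (3.45, SE 0.11, limma adjusted p = 1.38e-06). For both genes set 1 was higher than set 2 in either treatment, and the change was similar in both sets (2.78 and 3.11 for CG15784, 3.56 and 3.34 for CG8620).

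Tektin-A, which encodes a filament protein of ciliary and flagellar microtubules, stood at 0.0823, 0.0733, 0.02196 and 0.0245 FPKM in control libraries and 18.9, 14.95, 2.13 and 2.72 FPKM in dsbarc cells (2.89, SE 0.41). Its neighbour on arm 2L, CG13243, stood at 0.374, 0.373, 0.0615 and 0.0348 FPKM in control and 28.4, 22.2, 3.57 and 6.41 FPKM in dsbarc libraries (3.36, SE 0.34). The spermatid transcript t-cup, which lies within bun, stood at 2.03, 1.04, 0.173 and 0.408 FPKM in control and 36.9, 33.7, 3.500 and 5.099 FPKM in dsbarc libraries (2.95, SE 0.35). All 3 were several times higher in dsbarc cells of set 1 than of set 2. Taf12L, a relative of the general transcription factor subunit gene Taf12, went the other way, with 0.151, 0.878, 6.996 and 4.69 FPKM in control libraries and 23.7, 19.8, 114 and 133 FPKM in dsbarc cells (4.08, SE 0.18, limma adjusted p = 3.78e-06). In both treatments its levels were higher in set 2, and its change was 3.95 in set 1 and 4.20 in set 2. Taf12L overlaps CG34351, which was itself called higher (0.87).

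The other risers carry CG names. CG3491 stood at 0.1700, 0.147, 0.121 and 0.433 FPKM in control libraries and 23.1, 20.3, 11.4 and 14.02 FPKM in dsbarc cells (3.86, SE 0.19). CG7296 (11.1, 12.3, 4.12 and 1.92 against 164, 131, 36.3 and 29.7 FPKM) rose by 3.33 (SE 0.19). The gene next to it, CG7299 (4.68, 7.02, 1.44 and 0.7296 against 118, 94.9, 13.2 and 9.91 FPKM), rose by 3.29 (SE 0.29). These neighbours on arm 2L had the same order of libraries in the controls of each set, with set 1 above set 2. CG9336 (2.08, 2.38, 1.41 and 1.55 against 90.6, 62.5, 10.6 and 9.17 FPKM) rose by 3.35 (SE 0.43). CG9865 (1.37, 0.142, 1.59 and 0.5905 against 20.4, 22.3, 14.1 and 13.9 FPKM) rose by 3.32 (SE 0.28), and the authors' deposited table lists no value for it. CG33970, which encodes an ABC transporter (2.06, 1.86, 0.847 and 0.732 against 55.6, 54.9, 6.29 and 7.84 FPKM), rose by 3.21 (SE 0.37). In each of these genes all 4 dsbarc libraries lay above all 4 controls. CG9864 (1.24, 0.771, 0.403 and 0.664 against 33.4, 29.00, 6.202 and 7.59 FPKM) rose by 3.19 (SE 0.31). CG14961 (2.05, 1.81, 2.67 and 4.06 against 44.8, 40.96, 20.5 and 22.8 FPKM) rose by 3.15 (SE 0.28). Tektin-A, CG13243, CG3491, CG9864, CG9865 and t-cup, with control means under 1 FPKM, passed the filter on low values only through their dsbarc level, and so had to differ. Because 1 is added before the log, the change of genes that start under 1 FPKM is understated: for Tektin-A the authors' deposited table gives a log2 ratio of 8.19 and for CG3491 6.40. CG3491, CG9865, CG33970, CG9864 and CG14961 overlap other genes of the tables, so part of their level may belong to a partner.

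Chaperone genes made up 7 of the 15 genes with the largest falls. Heat shock proteins keep other proteins from aggregating and refold them, and their genes are induced together by the factor Hsf when proteins are damaged. Of 12 small heat shock protein genes matched, 8 were expressed enough to be tested, and 7 fell (87.5% of the 8, against 25.5% of all genes), with 0 higher (limma; 0 also at an unadjusted p of 0.05 and in the authors' deposited table) and a median of -2.52 against -0.06 over all genes. In the fits that left out 1 library the count stayed at 7. Hsp26 (FBgn0001225, arm 3L, 9369518 to 9370527) stood at 1455, 1353, 2171 and 1732 FPKM in control libraries and at 174, 139.6, 231 and 252 FPKM in dsbarc cells (-3.08, SE 0.12, limma adjusted p = 1.63e-06). Hsp27 (arm 3L, 9377165 to 9378382) stood at 519, 579, 856 and 839 FPKM in control and 51.9, 52.6, 132 and 134 FPKM in dsbarc libraries (-3.02, SE 0.14). Hsp22 (arm 3L, 9366031 to 9368064), a mitochondrial member, stood at 1182, 1383, 2025 and 1669 FPKM in control and 158, 127, 286 and 272 FPKM in dsbarc libraries (-2.94, SE 0.14). All 3 were among the abundant transcripts of the controls, higher there in set 2 than in set 1, and lower in every dsbarc library than in any control. Hsp67Bc fell from 14.3 ± 6.83 to 1.596 ± 1.01 FPKM (-2.54, SE 0.13). The level of Hsp22 is uncertain, since the gene shares its span with Hsp67Bb and the authors' deposited table lists no value for it. The 1 member that was tested and not called, CG4461, changed by -0.35 (limma adjusted p = 0.0823). It lies at arm 3L, 9368530 to 9369393, between Hsp22 and Hsp26, in the cluster of these genes at 67B.

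Among the larger chaperones falls also outnumbered rises (over all genes 25.5% fell and 20.5% rose). Of 23 genes of Hsp70, Hsp90 and their co-chaperones, 21 were tested, of which 13 fell (61.9%) and 2 rose (9.52%; 1 without dsmCherry 1, dsbarc 1 or dsbarc 2 and 1 with replicate numbers as the block), with a median of -0.73. Hsp70Bb (FBgn0013278, arm 3R, 8331515 to 8334105), a copy of the main inducible chaperone gene, stood at 119.8, 117, 240.0 and 219 FPKM in control libraries and 10.7, 8.34, 24.2 and 27.5 FPKM in dsbarc cells (-3.31, SE 0.12, limma adjusted p = 1.63e-06). Hsp70Ba stood at 29.3, 25.1, 43.5 and 34.2 FPKM in control and 3.09, 2.15, 4.61 and 5.48 FPKM in dsbarc libraries (-2.84, SE 0.14), and Hsp70Bc at 15.9, 19.1, 47.5 and 35.8 FPKM in control and 1.12, 1.296, 4.18 and 3.93 FPKM in dsbarc libraries (-3.06, SE 0.12). The Hsp70 copies are nearly identical, so that reads may be split among them and the level of 1 copy is uncertain, while all copies tested fell. Hsp68, a diverged and single relative of Hsp70, stood at 173, 163, 259 and 242 FPKM in control and 17.3, 14.8, 31.1 and 32.7 FPKM in dsbarc libraries (-3.12, SE 0.11, limma adjusted p = 1.38e-06). It overlaps CG6000. The change was -3.16 in set 1 and -3.003 in set 2 for Hsp26, and -3.31 and -2.93 for Hsp68. It was -3.37 and -2.67 for Hsp27, a difference that passed the interaction test (limma adjusted p = 0.0088). Over the Hsp70 and Hsp90 list the median was -0.93 in set 1 and -0.39 in set 2, with the interaction called for 4 of 21 genes.

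**Figure D2:**
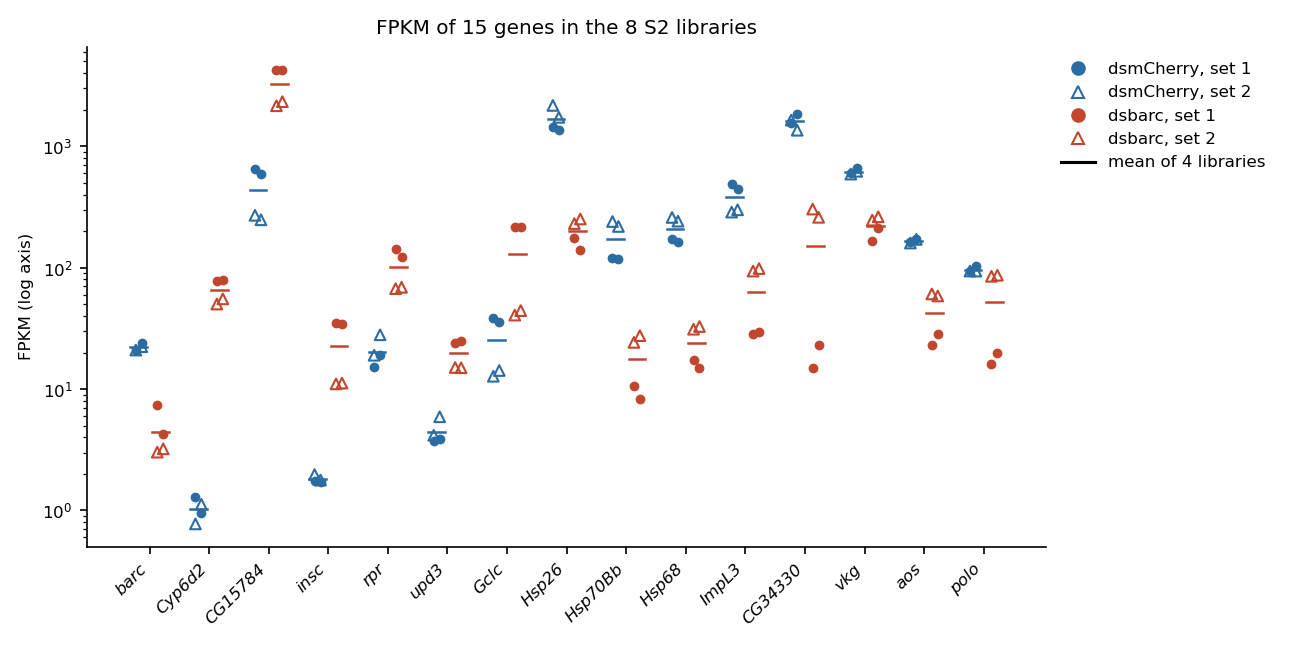
FPKM (log axis) of 15 genes named in the text in each of the 8 S2 libraries; blue marks dsmCherry and red dsbarc, filled circles set 1 and open triangles set 2, and lines are means of 4 libraries. Barc and the chaperone genes lie lower in all dsbarc libraries than in any control, while Cyp6d2, CG15784, insc, rpr and upd3 lie higher; for polo the 2 dsbarc libraries of set 2 (84.9 and 86.6 FPKM) lie close to the controls.

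The single largest fall was in CG34330, which stood at 1559.8, 1859, 1644 and 1356 FPKM in control libraries and 14.9, 23.1, 304 and 259.9 FPKM in dsbarc cells (-4.42, SE 0.70, limma adjusted p = 0.00159). Its levels in dsbarc cells of set 2 were over 10 times those of set 1, and its change was -6.44 in set 1 and -2.41 in set 2. CG14795, also on the X chromosome, had the same pattern, with 117, 128, 143 and 88.01 FPKM in control libraries and 1.59, 3.28, 32.1 and 35.3 FPKM in dsbarc cells (-3.46, SE 0.62). The transporter gene hoe1 (33.8, 31.3, 37.4 and 35.8 against 0.6196, 1.13, 11.2 and 13.5 FPKM) fell by 2.84 (SE 0.47). In these 3 genes the dsbarc libraries of the sets lay far apart, and the controls of the sets overlapped for CG34330 and CG14795 and were slightly higher in set 2 for hoe1. CG7737 (38.2, 41.4, 54.2 and 47.5 against 0.833, 1.76, 11.6 and 11.1 FPKM; -3.12, SE 0.38) and CG9629 (24.5, 26.1, 52.4 and 40.4 against 1.48, 1.86, 12.5 and 11.9 FPKM; -2.57, SE 0.27) were also lower in dsbarc cells of set 1 than of set 2, from controls that were higher in set 2. The gene cu, known as curled, encodes the deadenylase Nocturnin and stood at 37.5, 39.3, 52.1 and 42.03 FPKM in control libraries and 2.601, 1.84, 6.32 and 6.12 FPKM in dsbarc cells (-3.18, SE 0.19, limma adjusted p = 1.66e-05). CG6499 (33.6, 32.5, 15.2 and 11.8 against 2.61, 2.55, 1.98 and 2.92 FPKM) fell by 2.66 (SE 0.23), with its controls higher in set 1. CG7737 overlaps metro, and CG9629 overlaps CG42374 and CG9666.

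Most glycolysis genes tested fell. Of 14 matched, 12 were tested, of which 10 fell (83.3%, against 25.5% of all genes) and 0 rose (limma; 0 also at an unadjusted p of 0.05 and in the authors' deposited table), with a median of -0.63. Hex-A and PyK were not called. Without dsmCherry 2, dsbarc 1 or dsbarc 2 the count was 6, and in set 2 alone it was 4. The lactate dehydrogenase gene ImpL3 (FBgn0001258, arm 3L, 6252592 to 6255793), whose enzyme regenerates NAD+ from pyruvate, stood at 489, 443, 287 and 299.8 FPKM in control libraries and 28.3, 29.6, 93.7 and 98.3 FPKM in dsbarc cells (-2.78, SE 0.41, limma adjusted p = 0.00111). Set 1 controls were higher and set 1 dsbarc libraries lower than those of set 2, and the groups did not overlap. Pfk, the gene of the committing kinase of the pathway, fell from 54.6 ± 2.66 to 20.7 ± 10.2 FPKM (-1.48, SE 0.22). Eno, encoding enolase, fell from 797 ± 95.3 to 378 ± 65.3 FPKM (-1.08, SE 0.15), and Pgi, encoding glucose phosphate isomerase, from 173 ± 34.96 to 88.9 ± 5.36 FPKM (-0.93, SE 0.0985). The list median was -1.01 in set 1 and -0.36 in set 2, and the interaction was called for 7 of the 12 genes.

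The remaining metabolic lists had medians nearer to 0. In the tricarboxylic acid cycle and respiratory chain 7 of 30 genes fell (23.3%), a share close to that of all genes, and 0 rose (limma; 0 also at an unadjusted p of 0.05 and in the authors' deposited table), with a median of -0.21. That count ran from 3 without any 1 library of set 1 to 16 without dsmCherry 4, and was 4 without dsmCherry 3 or with replicate numbers as the block and 3 with quantile scaling, while 1 rose with TPM or quantile scaling. The succinate dehydrogenase subunit gene SdhA fell from 82.7 ± 6.76 to 46.97 ± 16.02 FPKM (-0.86, SE 0.18) and the fumarase gene l(1)G0255 from 97.2 ± 16.8 to 54.7 ± 15.4 FPKM (-0.85, SE 0.14). SdhC (-0.68) and the cytochrome c gene Cyt-c-p (-0.58) lost the call without any 1 library of set 1, and Cyt-c-p also without dsmCherry 3 (highest limma adjusted p 0.0639 and 0.0956). Of 18 tested genes of ATF4 and amino acid synthesis 8 fell (44.4%, against 25.5% of all genes) and 3 rose (16.7%, against 20.5%), with a median of -0.43. The sestrin gene Sesn, a stress-induced inhibitor of TOR signalling, fell from 33.1 ± 6.79 to 13.5 ± 6.09 FPKM (-1.32, SE 0.15), while the amino acid sensor kinase gene Gcn2 rose from 15.98 ± 2.34 to 34.1 ± 7.22 FPKM (1.03, SE 0.12). CG11899, the phosphoserine aminotransferase gene (-1.01, SE 0.20), and CG3011, the serine hydroxymethyltransferase gene (-0.94, SE 0.23), fell.

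In fatty acid synthesis 8 of 15 tested genes fell (53.3%, against 25.5% of all genes) and 2 rose (13.3%, against 20.5%), with a median of -0.35. With TPM scaling 3 fell, and with replicate numbers as the block 5 fell and 1 rose. Without any 1 library of set 1 the first count was 4, and the second was 0 without dsbarc 1 or dsbarc 2, 3 without dsmCherry 4 and 1 without each of the rest. Baldspot, a fatty acid elongase gene, fell from 44.5 ± 6.097 to 25.4 ± 5.39 FPKM (-0.80, SE 0.16), and desat1, the delta-9 desaturase gene, from 863 ± 49.4 to 589 ± 90.5 FPKM (-0.56, SE 0.11). The perilipin gene Lsd-1 (-0.64) and the acyltransferase gene mdy (-0.56) lost the call without any 1 library of set 1 or dsmCherry 3, and Lsd-1 also without dsbarc 4 (highest limma adjusted p 0.142 and 0.134). In the insulin and TOR list 3 of 22 genes rose (13.6%) and 2 fell (9.09%), against 20.5% and 25.5% of all genes. Rises and falls numbered 11 and 4 without dsmCherry 4, 2 and 4 without dsmCherry 3, and 1 and 2 without a set 1 library or dsbarc 4. With TPM scaling 5 rose, and with quantile scaling 6. Beside Sesn, the TOR activator gene Rheb fell (-0.74, SE 0.12) and the Arf exchange factor gene step rose (0.81, SE 0.16).

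Detoxification genes went both ways, each family with large rises and falls. Of 82 genes matched on the cytochrome P450 list, 37 were tested. Of these 13 rose (35.1%, against 20.5% of all genes) and 8 fell (21.6%, against 25.5%), with a median of 0.07. These counts include Cyp1, which fell but encodes a cyclophilin and no P450, so the falls of P450 genes are fewer. The rises numbered 5 at a mean of at least 5 FPKM and 23 with no filter on low values. Beside Cyp6d2, Cyp6w1 rose from 0.2098 ± 0.0752 to 5.01 ± 2.86 FPKM (2.18, SE 0.26); it passed the main filter (a mean of 1 FPKM) only through its level in dsbarc cells. The mitochondrial P450 gene Cyp12d1-d, which has a near-identical copy and is therefore uncertain, rose from 5.69 ± 1.76 to 18.9 ± 12.3 FPKM (1.37, SE 0.23). Cyp9c1 fell from 105 ± 36.3 to 45.98 ± 28.3 FPKM (-1.34, SE 0.16). Glutathione S-transferases couple glutathione to reactive compounds. Of 18 tested genes of this list 9 rose (50%, against 20.5% of all genes) and 5 fell (27.8%, against 25.5%), with a median of 0.42. GstE1, which also passed the filter only through its dsbarc level, rose from 0.416 ± 0.0614 to 3.46 ± 1.44 FPKM (1.60, SE 0.19) and GstD2 from 7.28 ± 4.97 to 25.7 ± 21.2 FPKM (1.47, SE 0.15). Of the same epsilon class as GstE1, GstE2 fell from 46.96 ± 22.3 to 17.7 ± 5.78 FPKM (-1.30, SE 0.13) and GstE9, which overlaps imd, from 114.7 ± 27.8 to 38.9 ± 17.98 FPKM (-1.62, SE 0.16).

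Genes of oxidative stress defence changed in both directions, and the largest change was a rise. Of 16 tested, 9 fell (56.2%, against 25.5% of all genes) and 3 rose (18.8%, against 20.5%), with a median of -0.43. The fall count was 5 without any 1 library of set 1, 6 without dsmCherry 3 and 10 without dsmCherry 4, and the rise count 5 without dsmCherry 4. Gclc, encoding the catalytic subunit of the rate-limiting enzyme of glutathione synthesis, stood at 38.3, 35.7, 12.7 and 14.2 FPKM in control libraries and 218, 214, 40.6 and 44.3 FPKM in dsbarc cells (2.05, SE 0.18, limma adjusted p = 1.09e-04). The dsbarc libraries lay above the controls of both sets, and set 1 lay above set 2 in either treatment. The malic enzyme gene Men fell from 309 ± 35.6 to 152 ± 26.98 FPKM (-1.03, SE 0.0976). The peroxiredoxin genes Prx2540-1 (-0.76, SE 0.10) and Prx2540-2 (-0.75, SE 0.13) fell, and as close copies of each other are uncertain one by one. Of 10 tested genes of metallothioneins and iron 3 fell (30%, against 25.5% of all genes) and 1 rose (10%, against 20.5%; 2 without dsmCherry 3 or dsmCherry 4). The metal-binding protein gene MtnA fell from 1110.3 ± 282 to 309.8 ± 67.8 FPKM (-1.82, SE 0.23). Smaller changes were seen for the transferrin genes Tsf2 (0.55, SE 0.11) and Tsf3 (-0.52, SE 0.13) and the copper importer gene Ctr1A (-0.51, SE 0.12).

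The death genes rpr and W were among the risers of the damage list. Of 27 genes of DNA damage, p53 and cell death matched, 23 were tested, of which 11 rose (47.8%, against 20.5% of all genes) and 5 fell (21.7%; 3 without any 1 library of set 1 or dsbarc 4, with TPM scaling or with replicate numbers as the block), with a median of 0.25. The 5 that fell were wgn, Dcp-1, lok, Ice and th, the largest fall being -0.95. They are not counted among the named list genes. The death gene rpr, whose product reaper relieves the inhibition of caspases, stood at 15.3, 19.03, 18.98 and 27.98 FPKM in control libraries and 143, 122, 67.1 and 68.9 FPKM in dsbarc cells (2.20, SE 0.27, limma adjusted p = 4.59e-04). The related death gene W, known as hid, stood at 0.566, 0.645, 1.81 and 2.46 FPKM in control and 12.3, 10.2, 6.84 and 7.005 FPKM in dsbarc libraries (2.14, SE 0.29). In both genes every dsbarc library lay above every control, and the dsbarc libraries of set 1 were the highest. The gene rad50, of the complex that senses double-strand breaks, stood at 34.3, 31.2, 19.00 and 39.2 FPKM in control and 128, 125, 51.7 and 58.1 FPKM in dsbarc libraries (1.45, SE 0.25). Xrp1, a p53-responsive transcription factor gene, stood at 271, 264, 111 and 205 FPKM in control and 778, 758, 281 and 309 FPKM in dsbarc libraries (1.24, SE 0.19), with dsmCherry 4 well above dsmCherry 3 in both.

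The cytokine genes upd2 and upd3 of the JAK/STAT pathway rose. Of 14 tested JAK/STAT genes 6 rose (42.9%, against 20.5% of all genes) and 2 fell (14.3%, against 25.5%), with a median of 0.39. The rises numbered 4 without any 1 library of set 1 or dsbarc 4 and 9 without dsmCherry 4. The falls numbered 1 without dsmCherry 2, dsbarc 2 or dsbarc 4. The cytokine gene upd3 stood at 3.71, 3.88, 4.16 and 5.91 FPKM in control libraries and 24.1, 24.8, 15.05 and 14.97 FPKM in dsbarc cells (1.92, SE 0.20, limma adjusted p = 2.38e-04). Its relative upd2 rose from 1.201 ± 0.246 to 4.08 ± 1.84 FPKM (1.14, SE 0.17). The groups did not overlap for either ligand. TepIV, a thioester protein gene, rose from 51.9 ± 20.7 to 284 ± 202 FPKM (2.18, SE 0.20), and the stress peptide gene TotA from 4.25 ± 2.098 to 21.3 ± 14.9 FPKM (1.90, SE 0.22). In the JNK list 4 of 13 genes rose (30.8%) and 1 fell (7.69%), against 20.5% and 25.5% of all genes, but 1 rose without any 1 library of set 1 or dsmCherry 3, 2 without dsbarc 4, and 2 fell without dsmCherry 3. Ets21C rose (0.62, SE 0.10) and the kinase gene hep fell (-0.49, SE 0.0912). The changes of chinmo (0.81) and scaf (0.78) lost the call without any 1 library of set 1 or dsmCherry 3, and chinmo also without dsbarc 4 (highest limma adjusted p 0.0954 and 0.0937).

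Genes of immune signalling were called at shares near or below those of all genes. Of 32 tested genes of the Toll and Imd pathways 7 rose (21.9%) and 6 fell (18.8%; 4 without dsmCherry 2, dsbarc 2 or dsbarc 3 and 3 without dsbarc 4), against 20.5% and 25.5% of all genes. With TPM scaling 10 rose and 4 fell, and with quantile scaling 8 rose and 4 fell. The fungal sensor gene GNBP3 fell from 19.1 ± 8.69 to 5.57 ± 5.11 FPKM (-1.94, SE 0.23) and the antibacterial peptide gene CecC from 62.9 ± 5.21 to 35.01 ± 5.38 FPKM (-0.84, SE 0.12). The NF-kappaB factor gene Dif rose from 12.7 ± 2.96 to 27.1 ± 1.25 FPKM (1.06, SE 0.14); it overlaps its relative dl. The antibacterial peptide gene Dro changed by 0.91 (SE 0.22) with groups that overlapped (1.67, 2.29, 5.91 and 3.96 against 7.59, 3.601, 10.2 and 7.44 FPKM).

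Ligand and inhibitor genes of receptor tyrosine kinase signalling changed in both directions. Of 23 tested, 5 rose (21.7%) and 8 fell (34.8%), against 20.5% and 25.5% of all genes, with a median of -0.24. The first count was 2 to 3 without any 1 library of set 1 and 8 without dsmCherry 4, and the second 5 without any 1 library of set 1. The EGF receptor ligand gene vn stood at 3.14, 2.44, 0.823 and 2.15 FPKM in control libraries and 19.5, 19.4, 6.79 and 7.87 FPKM in dsbarc cells (2.12, SE 0.20, limma adjusted p = 1.59e-04). The secreted EGF receptor inhibitor gene aos stood at 163, 172, 159.5 and 171 FPKM in control and 22.95, 28.6, 60.7 and 58.5 FPKM in dsbarc libraries (-2.06, SE 0.23). Every dsbarc library thus lay above every control for vn and below every control for aos. Other ligand and inhibitor genes of the same receptor, chosen after their values were seen, went the other way: the ligand gene spi fell (-0.57, SE 0.10) and the inhibitor gene kek1 rose (1.02, SE 0.11), the latter with groups that overlapped. Pvf1, a PDGF- and VEGF-like ligand gene, fell from 69.3 ± 3.05 to 21.5 ± 10.5 FPKM (-1.77, SE 0.21), and sty, the gene of the intracellular inhibitor sprouty, from 293 ± 33.4 to 115.2 ± 7.34 FPKM (-1.34, SE 0.11).

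In the Notch list 3 of 18 tested genes rose (16.7%) and 2 fell (11.1%), against 20.5% and 25.5% of all genes (6 and 5 without dsmCherry 4), with a median of 0.04. The receptor gene N rose from 15.5 ± 1.24 to 44.9 ± 12.1 FPKM (1.44, SE 0.16) and fng, whose product modifies the receptor, from 3.601 ± 1.23 to 10.5 ± 4.31 FPKM (1.28, SE 0.29). The ligand gene Ser fell from 7.78 ± 0.777 to 2.39 ± 2.09 FPKM (-1.61, SE 0.27), and the ubiquitin ligase gene Su(dx) from 75.1 ± 8.62 to 46.1 ± 9.05 FPKM (-0.71, SE 0.0874). Of 15 tested ecdysone response genes 6 rose (40%, against 20.5% of all genes) and 1 fell (6.67%, against 25.5%), with a median of 0.28. The rises numbered 4 without any 1 library of set 1. The falls numbered 0 without any 1 library of set 1 or dsmCherry 4, with TPM scaling or with replicate numbers as the block. The receptor gene EcR (0.70, SE 0.16), the early genes Eip74EF (0.81, SE 0.11) and br (0.66, SE 0.16) and the nuclear receptor gene Hr39 (0.66, SE 0.13) rose.

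Genes that mark S2 cells as blood cells changed in both directions, and collagen genes fell. The summed level of the 11 blood cell and S2 markers ran from 4281 to 5443 FPKM in the controls and from 1692 to 2406 FPKM in dsbarc cells. Its most abundant members were Nplp2, vkg and Cg25C, which fell and dominate the sum. Of the other markers srp, ush, crq, eater and Hml were not called, He and Sr-CI rose and Pxn fell. Whether cells differed in number or in RNA per cell cannot be told apart in bulk RNA. Of 20 tested hemocyte genes 7 rose and 7 fell (35% each, against 20.5% and 25.5% of all genes), or 5 and 4 without any 1 library of set 1. The Ly6 family gene atilla, a marker of lamellocytes, stood at 0.0559, 0.275, 0.0612 and 0.0696 FPKM in control libraries and 18.7, 12.8, 1.02 and 0.934 FPKM in dsbarc cells (2.36, SE 0.52). It was thus under 0.3 FPKM in every control, passed the filter on low values only through its dsbarc level, and reached 10 FPKM or more only in dsbarc cells of set 1. The Imd inhibitor gene dnr1 rose from 4.27 ± 0.786 to 19.00 ± 10.9 FPKM (1.76, SE 0.22) and the blood cell surface gene He, which overlaps nimB5, from 23.3 ± 15.1 to 74.8 ± 41.6 FPKM (1.70, SE 0.13). Nplp2, a secreted peptide gene and among the most abundant transcripts, fell from 2865 ± 514 to 969 ± 248 FPKM (-1.58, SE 0.19).

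Of 17 tested genes of basement membrane and matrix 9 fell (52.9%, against 25.5% of all genes) and 3 rose (17.6%, against 20.5%), with a median of -0.71. Both chains of collagen IV fell. The chain gene vkg stood at 599, 665, 590.0 and 622 FPKM in control libraries and 166, 213, 246 and 263 FPKM in dsbarc cells (-1.49, SE 0.13, limma adjusted p = 1.15e-04). Its partner Cg25C, which lies next to it, stood at 775, 945, 873 and 861 FPKM in control and 236, 330.3, 362 and 382 FPKM in dsbarc libraries (-1.42, SE 0.14). The 4 controls were close to each other and well above all dsbarc libraries for both. The collagen-modifying prolyl hydroxylase gene PH4alphaEFB fell from 279 ± 44.00 to 114.8 ± 52.7 FPKM (-1.38, SE 0.19) and the integrin ligand gene Tig from 166 ± 20.1 to 48.9 ± 25.7 FPKM (-1.89, SE 0.24). Of 37 tested genes of actin, adhesion and cell shape 16 rose (43.2%, against 20.5% of all genes) and 3 fell (8.11%, against 25.5%), with a median of 0.24. The falls numbered 0 to 1 without any 1 library other than dsmCherry 3 or dsmCherry 4. They numbered 0 with TPM or quantile scaling or with replicate numbers as the block. Fas3, an adhesion protein gene of epithelia and neurons, rose from 1.29 ± 0.2003 to 8.88 ± 4.54 FPKM (1.99, SE 0.25). Nrg, the neuroglian gene, rose from 29.4 ± 6.26 to 65.6 ± 13.7 FPKM (1.13, SE 0.18), alpha-Cat, the gene of the link from cadherin to actin, from 24.4 ± 9.77 to 49.4 ± 3.06 FPKM (1.05, SE 0.22), and Fas2 from 2.37 ± 0.821 to 5.75 ± 1.12 FPKM (1.02, SE 0.13).

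Polarity and neural genes included some of the larger rises. Of 21 tested genes of spindle orientation and cell polarity 6 rose (28.6%, against 20.5% of all genes) and 3 fell (14.3%, against 25.5%). Without dsmCherry 4 the rises numbered 8. The falls numbered 1 without dsmCherry 1, dsmCherry 2 or dsbarc 2 or with TPM scaling. The gene insc, whose product inscuteable links the apical complex to the spindle in dividing neuroblasts, stood at 1.74, 1.704, 1.97 and 1.78 FPKM in control libraries and 35.03, 34.03, 11.02 and 11.2 FPKM in dsbarc cells (2.89, SE 0.29, limma adjusted p = 1.99e-04). The neuroblast-defining genes ase and wor stayed at or near 0 beside it. The epithelial polarity genes sdt (2.34, 2.63, 7.32 and 6.99 against 15.9, 15.9, 14.9 and 15.7 FPKM; 1.64, SE 0.23) and par-1 (0.82, SE 0.15) rose, and pon, which encodes an adaptor of Numb, fell (-0.82, SE 0.15). Of 19 neuronal and synaptic genes matched, 6 were tested. Of these 4 rose (66.7%, against 20.5% of all genes) and 0 fell (limma, against 25.5%). The falls were also 0 at an unadjusted p of 0.05 and in the authors' deposited table. Arc1, which encodes a capsid-forming relative of retrotransposon Gag proteins, stood at 1189.8, 1300.0, 321 and 264 FPKM in control libraries and 6943, 7086, 1174 and 1202 FPKM in dsbarc cells (2.26, SE 0.12). Set 1 was several times higher than set 2 in either treatment, and the change was 2.49 and 2.02. Its neighbour Arc2 rose from 109 ± 46.6 to 254 ± 117 FPKM (1.19, SE 0.10), and the synaptic genes unc-13 from 15.5 ± 7.42 to 66.8 ± 23.4 FPKM (2.13, SE 0.32) and brp from 1.69 ± 0.691 to 6.13 ± 4.49 FPKM (1.19, SE 0.31). Over all 8 libraries the groups overlapped for Arc1, Arc2 and brp and not for unc-13. As 6 of 19 passed the filter on low values, the counts describe these 6 genes alone.

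**Figure D3:**
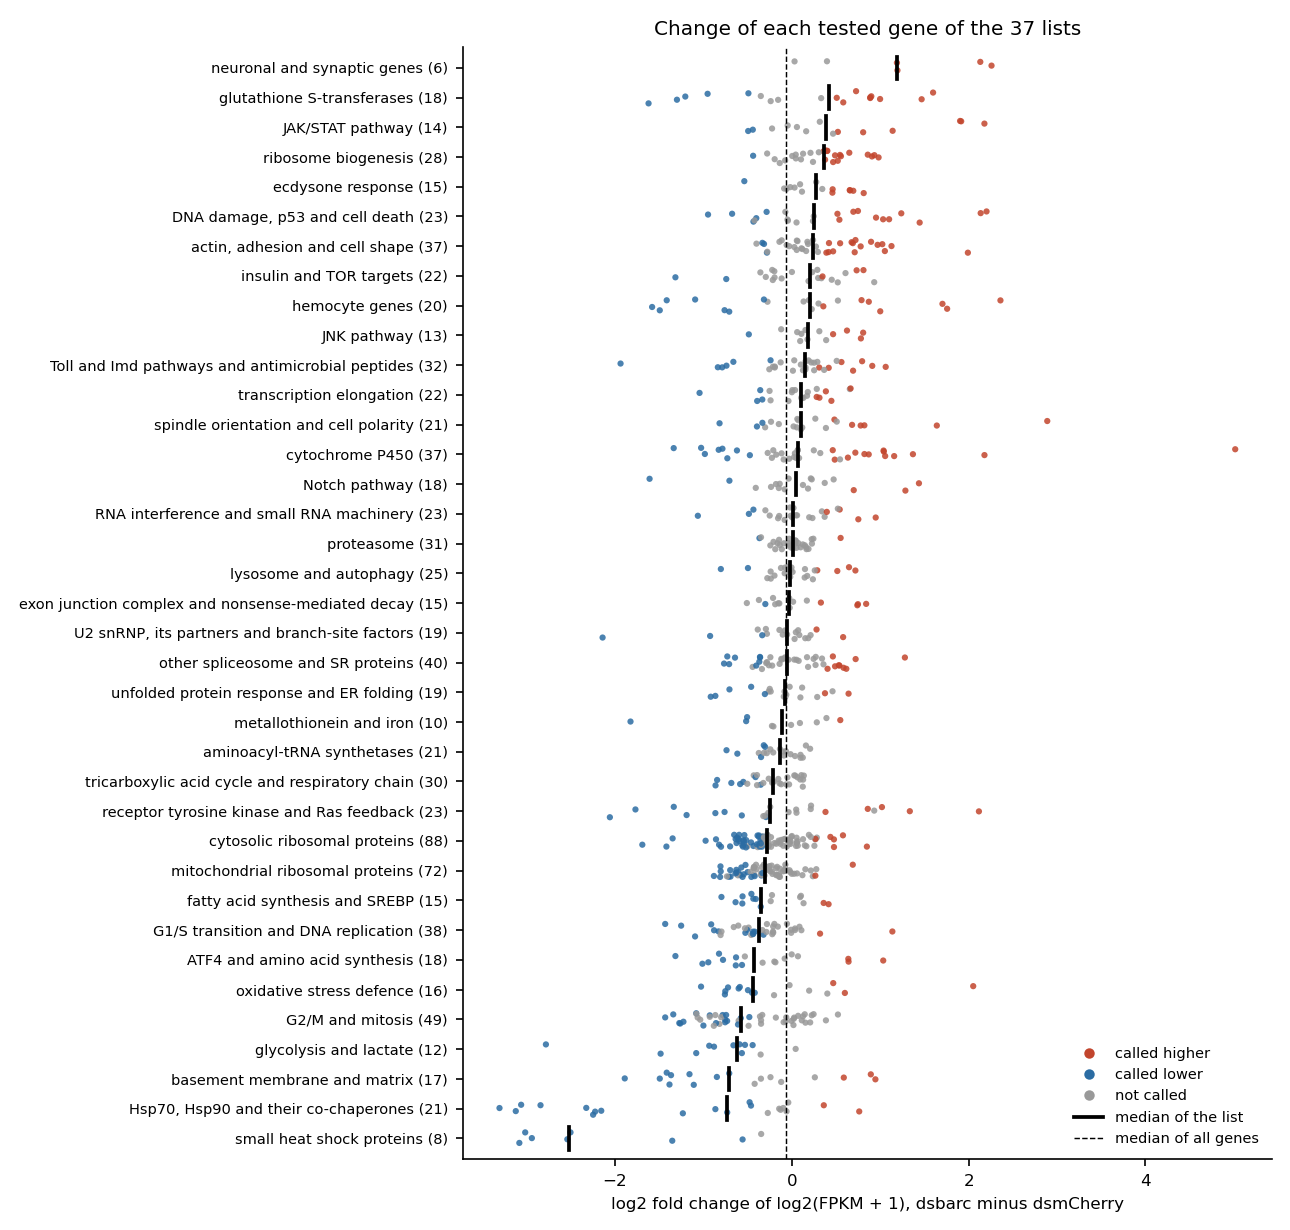
Each point is 1 tested gene of the list named at the left (number tested in parentheses), at its log2 fold change of log2(FPKM + 1), dsbarc minus dsmCherry; red was called higher, blue lower and grey not called, thick bars are list medians and the dashed line is the median of all genes (-0.06). Small heat shock proteins lie furthest to the left (median -2.52), followed by the Hsp70 and Hsp90, basement membrane and glycolysis lists, while most other medians lie near that of all genes.

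Among cell cycle genes falls outnumbered rises, as they did over all genes (25.5% lower and 20.5% higher). Of 49 tested genes of G2/M and mitosis 17 fell (34.7%) and 0 rose (limma; 1 at an unadjusted p of 0.05, 1 in the authors' deposited table, and 1 without dsmCherry 4 or with TPM or quantile scaling), with a median of -0.58; that median was -0.87 in set 1 and 0.08 in set 2. The count was 7 to 8 without any 1 library of set 1 and 10 with replicate numbers as the block. The treatment by set interaction was called for 31 of these 49 genes, against 22.4% of all genes. The mitotic kinase gene polo stood at 94.7, 104, 93.8 and 93.7 FPKM in control libraries and 15.9, 19.8, 84.9 and 86.6 FPKM in dsbarc cells (-1.27; -2.42 in set 1 and -0.13 in set 2, interaction limma adjusted p = 5.70e-04). The libraries dsbarc 1 and 2 were far below the controls, and dsbarc 3 and 4 just below them. The cytokinesis gene tum changed by -1.26 (-2.46 and -0.07), with groups that overlapped. Both genes lost the call without any 1 library of set 1, and tum also without dsmCherry 3 (highest limma adjusted p 0.0899 and 0.108). The mitotic cyclin gene CycA fell from 62.7 ± 3.37 to 28.5 ± 17.9 FPKM (-1.34, SE 0.28). The phosphatase gene stg, which triggers entry into mitosis, stood at 124, 130.2, 159 and 173 FPKM in control libraries and 31.7, 36.3, 85.5 and 80.3 FPKM in dsbarc cells (-1.43, SE 0.17), and it fell in both sets (-1.87 and -0.99).

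Of 38 tested genes of the G1/S transition and DNA replication 13 fell (34.2%, against 25.5% of all genes) and 2 rose (5.26%, against 20.5%). The median was -0.38, with -0.70 in set 1 and 0.03 in set 2. Without any 1 library of set 1, 6 to 7 fell, and without dsmCherry 4, 22 fell; 1 rose without dsmCherry 1, 3 or 4 or dsbarc 2, 3 or 4. With TPM scaling 8 fell, and with replicate numbers as the block 7 fell and 1 rose. The ribonucleotide reductase subunit gene RnrS stood at 151, 168, 189 and 149.6 FPKM in control libraries and 35.2, 42.5, 122 and 116 FPKM in dsbarc cells (-1.25, SE 0.28). The replication licensing gene Cdc6 fell from 10.9 ± 1.14 to 4.81 ± 1.88 FPKM (-1.09, SE 0.20). RpA-70, encoding the large subunit of the single-strand DNA binding complex, went against the list and rose from 127 ± 22.1 to 301 ± 137 FPKM (1.14, SE 0.17).

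Genes of splicing, the process in which Tat-SF1 is known to act, were called at shares near or below those of all genes (20.5% higher and 25.5% lower). Of 19 genes of the U2 particle, its partners and branch-site factors, barc included, 3 fell (15.8%; 7 without dsmCherry 4) and 2 rose (10.5%; 1 without 1 of 6 libraries or with replicate numbers as the block and 3 without dsmCherry 4), with a median of -0.05, or 0.07 after rescaling to TPM. CG11985, the SF3b subunit 5 gene, fell from 44.9 ± 3.99 to 23.7 ± 5.76 FPKM (-0.92, SE 0.14) and CG13900, the SF3b subunit 3 gene, rose from 174 ± 48.1 to 257 ± 56.1 FPKM (0.58, SE 0.0856). The SF3b gene CG13298 (-0.33) lost the call without any 1 library of set 1, dsmCherry 3 or dsbarc 4 (highest limma adjusted p 0.125). Of 40 other spliceosome and SR protein genes 9 rose (22.5%) and 8 fell (20%; 4 without any 1 library of set 1, 5 without dsmCherry 3 or with quantile scaling, 15 without dsmCherry 4 and 4 with replicate numbers as the block). The Nova-like splicing regulator gene ps stood at 83.8, 66.6, 42.7 and 104 FPKM in control libraries and 233, 229.5, 127 and 131 FPKM in dsbarc cells (1.28, SE 0.26). The tri-snRNP gene Prp31 rose (0.72, SE 0.12) and the SR protein gene x16 fell (-0.77, SE 0.18). SmG (-0.73) lost the call without any 1 library of set 1 or dsmCherry 3 (highest limma adjusted p 0.0902).

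Nonsense-mediated decay removes transcripts with early stop codons. Of 15 genes on that list 4 rose (26.7%, against 20.5% of all genes) and 1 fell (6.67%, against 25.5%). The falls numbered 0 without any 1 library of set 1, with TPM scaling or with replicate numbers as the block, and 4 without dsmCherry 4. Gadd45, whose transcript is known to be held low by this decay, rose from 19.1 ± 3.29 to 35.8 ± 17.9 FPKM (0.75, SE 0.17). Smg6 rose from 39.2 ± 6.61 to 78.8 ± 41.6 FPKM (0.84, SE 0.19), and sbr, the mRNA export receptor gene, from 56.9 ± 14.03 to 102 ± 46.3 FPKM (0.74, SE 0.15). Smg5 (0.33) lost the call without any 1 library of set 1, dsmCherry 3 or dsbarc 4 (highest limma adjusted p 0.146). Of 22 tested transcription elongation genes 5 rose (22.7%) and 4 fell (18.2%), against 20.5% and 25.5% of all genes; 1 to 2 rose and 1 fell without any 1 library of set 1, 8 rose without dsmCherry 4 and 2 without dsbarc 4, and 1 fell with TPM scaling or with replicate numbers as the block. Cdk9, the kinase gene of the elongation factor P-TEFb, stood at 30.04, 26.97, 22.7 and 25.6 FPKM in control libraries and 12.1, 13.3, 10.9 and 12.6 FPKM in dsbarc cells (-1.04, SE 0.0979, limma adjusted p = 1.53e-04). It was lower in all 4 dsbarc libraries, and by similar amounts in both sets (-1.11 and -0.98). Ssrp, of the histone chaperone FACT, rose (0.67, SE 0.13). RpII215 (0.45) and TfIIS (-0.39) lost the call without any 1 library of set 1 and without some libraries of set 2 (dsbarc 3 or 4 for RpII215, dsmCherry 3 for TfIIS; highest limma adjusted p 0.0903 and 0.135). In the RNA interference list 4 of 23 genes rose (17.4%; 8 without dsmCherry 4 and 7 with quantile scaling) and 3 fell (13%; 2 without dsmCherry 2, dsbarc 1, dsbarc 2 or dsbarc 3). The germline Argonaute gene piwi fell from 4.21 ± 1.302 to 1.54 ± 0.846 FPKM (-1.06, SE 0.12), and spn-E, a helicase gene of the same pathway, rose from 7.92 ± 1.08 to 16.2 ± 2.21 FPKM (0.95, SE 0.11). TBPH, the TDP-43 gene, rose (0.75, SE 0.11) and so did Dcr-1, the microRNA-processing enzyme gene (0.54, SE 0.0969).

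Ribosomal protein genes and ribosome assembly genes were counted on separate lists. The first list includes RpL7-like and RpLP0-like, both among its genes that rose, and RpL24-like, which was not called. These 3 may not encode ribosomal proteins, so the lists may be mixed. Of 88 tested cytosolic ribosomal protein genes 36 fell (40.9%, against 25.5% of all genes) and 6 rose (6.82%, against 20.5%). The median was -0.28, -0.15 on the TPM scale and -0.11 when quantile normalised, so part of the shift follows the scaling. Without dsmCherry 2, dsbarc 1 or dsbarc 2 the falls numbered 21 to 22, and 54 without dsmCherry 4; the rises numbered 3 without dsmCherry 1, dsbarc 1 or dsbarc 2. With TPM scaling 13 rose and 33 fell, and with quantile scaling 15 rose and 26 fell. RpL34b fell from 2618 ± 677 to 844 ± 339 FPKM (-1.69, SE 0.19) and RpS15 from 2860.2 ± 353 to 1168 ± 397 FPKM (-1.35, SE 0.16). RpS19a (-0.98, SE 0.17) and its paralog RpS19b (-1.42, SE 0.28), which may share reads, fell. Of 72 mitochondrial ribosomal protein genes 21 fell (29.2%, near the 25.5% of all genes) and 2 rose (2.78%), with a median of -0.30 (-0.52 in set 1 and -0.01 in set 2). The falls numbered 8 without any 1 library of set 1, 12 and 13 without dsmCherry 3 and dsbarc 4, and 48 without dsmCherry 4, so this count rests on single libraries. The rises numbered 1 without 1 of 6 libraries, all but dsmCherry 3 and 4. With TPM scaling 13 fell and 5 rose, with quantile scaling 4 rose, and with replicate numbers as the block 12 fell and 1 rose. Examples were mRpS21 (-0.88, SE 0.22), mRpL14 (-0.81, SE 0.19), mRpL22 (-0.81, SE 0.18) and mRpL48 (-0.80, SE 0.16).

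Of 28 ribosome biogenesis genes 15 rose (53.6%, against 20.5% of all genes) and 1 fell (3.57%; 4 without dsmCherry 4), with a median of 0.37. The rise count was 13 to 15 without any 1 library. The small subunit assembly gene l(2)k09022 stood at 14.6, 13.6, 8.63 and 15.1 FPKM in control libraries and 27.7, 28.5, 23.8 and 24.5 FPKM in dsbarc cells (0.98, SE 0.15, limma adjusted p = 0.00132). The nucleolar genes mod (0.93, SE 0.16) and Nopp140 (0.86, SE 0.20) and CG12325 (0.91, SE 0.0959) also rose. Changes were similar in both sets for these 4 genes, with 0.99 and 0.88 for mod and 0.69 and 1.02 for Nopp140. Of 21 aminoacyl-tRNA synthetase genes 5 fell (23.8%, near the 25.5% of all genes) and 0 rose (limma; 0 also at an unadjusted p of 0.05 and in the authors' deposited table, and 2 with TPM or quantile scaling). The falls numbered 2 without any 1 library other than dsmCherry 3 or 4, 10 without dsmCherry 4, and 2 with TPM or quantile scaling or with replicate numbers as the block. Aats-phe (-0.74, SE 0.17) and Aats-asn (-0.62, SE 0.15) fell, and Aats-pro (-0.35) and Aats-ala-m (-0.32) lost the call without any 1 library other than dsmCherry 4 (highest limma adjusted p 0.0934 and 0.0948).

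Outside the heat shock lists, genes of protein quality control were called at shares near or below those of all genes (20.5% higher and 25.5% lower). Of 31 tested proteasome genes 1 rose (3.23%), Rpn5 (0.55, SE 0.13; 2 without dsmCherry 4), and 1 fell (3.23%), Rpt4 (-0.37), which lost the call without any 1 library of set 1 (highest limma adjusted p 0.112), while 7 fell without dsmCherry 4. With TPM scaling 5 rose and 0 fell, with quantile scaling 8 rose and 0 fell, and with replicate numbers as the block 1 rose and 0 fell. The list median was 0.01. Of 19 genes of the unfolded protein response 5 fell (26.3%; 3 without any 1 library of set 1) and 2 rose (10.5%; 4 without dsmCherry 4), with a median of -0.08, or 0.04 after rescaling to TPM. The ubiquitin ligase gene sip3 fell from 70.2 ± 9.37 to 37.9 ± 1.97 FPKM (-0.86, SE 0.0909) and Gp93, the endoplasmic Hsp90 gene, from 501 ± 44.04 to 309 ± 55.7 FPKM (-0.71, SE 0.13). The ATF4 gene crc rose from 590.3 ± 5.71 to 927 ± 115.4 FPKM (0.64, SE 0.0941). Sec61alpha, of the translocation channel, changed by -0.92 and lost the call without any 1 library of set 1 (highest limma adjusted p 0.0633). Of 25 tested lysosome and autophagy genes 4 rose (16%; 2 without dsbarc 1 or dsbarc 2) and 2 fell (8%; 5 without dsmCherry 4 and 1 without dsbarc 3 or dsbarc 4). With TPM or quantile scaling 7 rose and 1 fell, and with replicate numbers as the block 1 fell. Atg13 fell (-0.80, SE 0.12), and the lysosomal regulator gene Mitf (0.72, SE 0.19) and the protease gene cathD (0.51, SE 0.11) rose. Atg8a (0.65) lost the call without dsbarc 1 or dsbarc 2 (highest limma adjusted p 0.0560).

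The sets differed in the size of the change. All 3496 called genes had the same sign in both sets, to which the choice of called genes contributes, and 2840 of them changed more in set 1. The median absolute change of called genes was 0.82 in set 1 and 0.47 in set 2, and barc itself was lower in dsbarc cells of set 2 (3.02 and 3.22 FPKM) than of set 1 (7.32 and 4.27 FPKM). The treatment by set interaction passed an adjusted p of 0.05 for 1702 genes (22.4%), of which 1512 changed more in set 1. Of the 30 named genes with the largest changes and barc, 18 had a called interaction and 13 did not, among the latter Cyp6d2, Taf12L, CG8620, CG15784, Hsp26, Hsp68 and barc. Fitted alone, set 1 gave 2082 genes that rose and 3394 that fell, and set 2 gave 462 and 472. The small heat shock median was -2.50 in set 1 and -2.54 in set 2, while the G2/M median changed sign, as the plot of list medians by set shows.

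**Figure D4:**
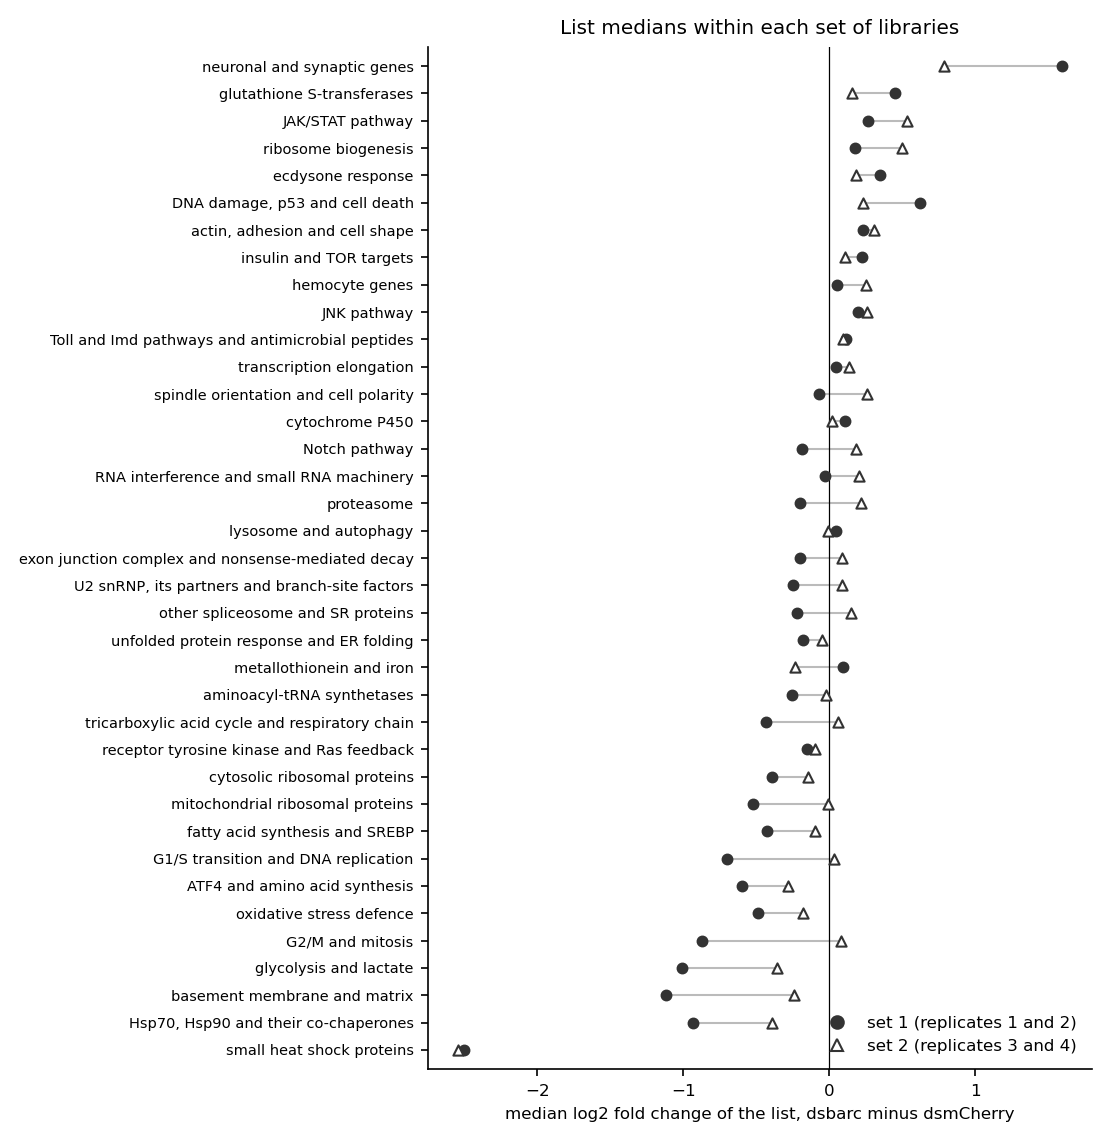
For each of the 37 lists, the median log2 fold change (dsbarc minus dsmCherry) over its tested genes within set 1 (filled circles, replicates 1 and 2) and within set 2 (open triangles, replicates 3 and 4). Small heat shock proteins have near-equal medians (-2.50 and -2.54), whereas the G2/M list lies at -0.87 in set 1 and 0.08 in set 2.

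The change in S2 cells was set against that in neuroblasts for the named genes. In 1 limma fit over all 12 libraries, the S2 change minus the neuroblast change passed an adjusted p of 0.05 for 1364 of 7581 genes (18%), and for 30 of the 31 named genes with the largest changes, which were chosen for their size in S2 cells. The exception was barc itself (-2.14 and -2.39; difference 0.25, adjusted p = 0.562). The lactate dehydrogenase gene ImpL3 changed by -2.78 in S2 cells and 2.83 in neuroblasts (difference -5.61, adjusted p = 5.30e-04). Hsp22 changed by -2.94 and 1.62 (difference -4.56, adjusted p = 7.96e-07). Both genes thus moved in opposite directions in the systems. Hsp26 (0.15 in neuroblasts), Hsp68 (-0.15) and Cyp6d2 (0.14) did not pass the test in neuroblasts, where Cyp6d2 was at 0 FPKM in the controls. For CG34330, CG14795, cu, hoe1, CG6499 and CG9629, which fell in S2 cells, the neuroblast controls were at 0.12 FPKM or less, so the difference restates the change in S2 cells. Arc1 rose in both systems, by 2.26 in S2 cells and 5.39 in neuroblasts (difference -3.13, adjusted p = 4.41e-05). CG8620 (1.72), CG15784 (1.72) and CG9865 (1.78) also rose in neuroblasts (limma adjusted p = 4.16e-05, 5.63e-04 and 0.0261). There the mean went from 0.356 to 3.46 FPKM for CG8620 and from 0.242 to 3.20 FPKM for CG15784. At such levels the added 1 understates the neuroblast change, and with it enlarges the difference. Cdk9 changed by -1.04 and -1.12 (difference 0.07, adjusted p = 0.7402). The systems differ in library kit, way of RNAi and cell type, which cannot be told apart.

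Gene structure and position went with the share of genes called, given here as a description across genes with no test. A release 6 transcript was found for 7246 of the genes tested (95.3%). Among genes with 5 or more introns 30.4% rose and 20.5% fell, whereas with 1 intron 14.3% rose and 28% fell, and without introns 18.6% rose and 21.2% fell. Among genes with an intron, 31.1% rose and 22.1% fell in the class whose longest intron was over 1481 bases, against 16% and 25.8% in the class of 69 bases or less. Level went with the same shares: of genes with a mean up to 10.01 FPKM 28.1% rose and 22.1% fell, and of genes above 50.1 FPKM 15.6% and 30.6%. Genes inside the span of another gene rose in 27% and fell in 21.8% of 418 cases. On the small arm 4, which is largely heterochromatic, 51% of 51 genes rose and 5.88% fell, with a median change of 0.56 (0.53 in set 1 and 0.51 in set 2), and on the X chromosome 14.4% of 1317 rose and 31.3% fell. Structure, level and arm overlap among the same genes and their parts in these shares were not tested.

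**Figure D5:**
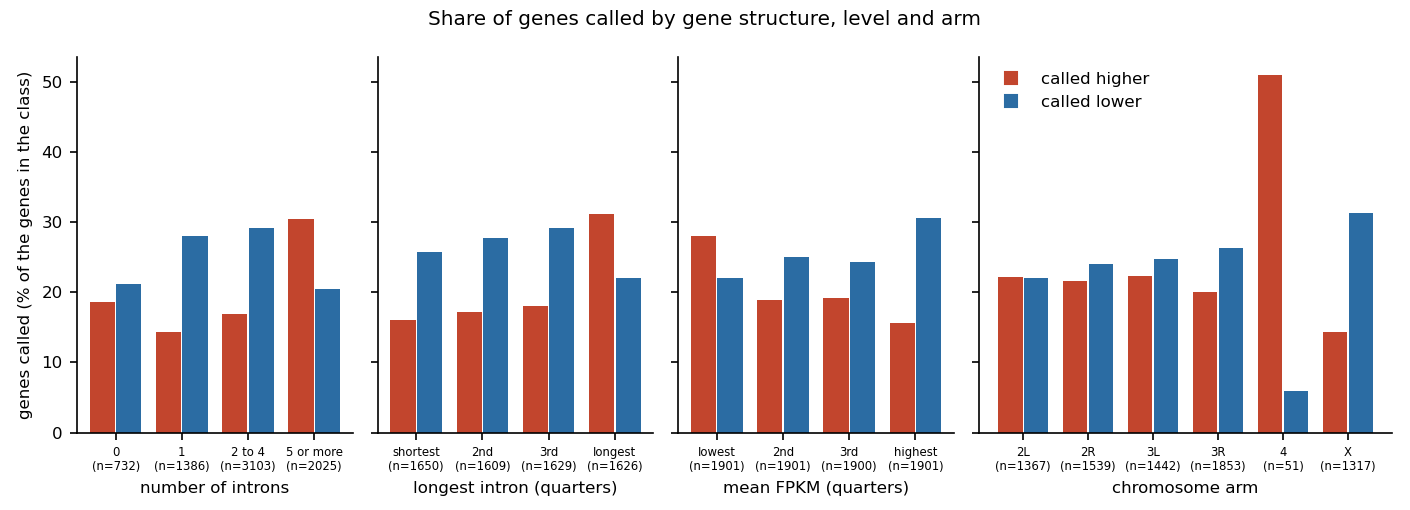
Percent of genes called higher (red) and lower (blue) in dsbarc cells by number of introns, by length of longest intron (4 classes of near-equal size, genes without introns left out), by mean FPKM (4 classes) and by chromosome arm, with the number of genes in each class under the axis. Genes with 5 or more introns, with the longest introns and with the lowest FPKM rose more often than they fell, and on arm 4 (51 genes) 51% rose.

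The authors' deposited comparison of the same libraries, made on counts, was set beside these values. Of 7532 genes tested here and listed there, the authors' deposited table calls 905 higher (12%) and 649 lower (8.62%) at an adjusted p of 0.05. Called both here and in the authors' deposited table were 1497 genes, of which 1496 had the same direction. The log2 ratio in the authors' deposited table was -2.23 for barc, 6.05 for Cyp6d2, -3.09 for Hsp26 and -2.66 for ImpL3. As both come from the same libraries, neither is a replicate of the other.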

How the data were processed

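Gene levels were deposited as FPKM with confidence limits for 8 S2 libraries and 4 neuroblast libraries, and a table of the authors' own comparison was deposited with mean signal, ratio and log2 ratio and p-values. The submitters' processing notes name Cufflinks 1.3.0, TopHat 1.4.1, DESeq, HTSeq and BWA 0.6.1. The sources used here name no genome build, annotation or strand setting. RNA was polyadenylated and strand-marked with dUTP, per the labels' protocols. Levels were tested as log2(FPKM + 1) with limma 3.58.1 in R 4.3.3 (trend on the mean level, set as a block, Benjamini-Hochberg adjusted p under 0.05, two-sided), and the fit was tested on simulated data. Genes needed an OK status in every S2 library and a mean of at least 1 FPKM. Figures were made with Python 3.11.15 and matplotlib 3.10.9. The text names barc, the 15 called genes with the largest rise and the 15 with the largest fall, and up to 4 called genes per list by size; 1 gene that this rule names is not reported here. The members and the 37 lists were chosen with earlier results of these data known. Whether same-numbered libraries of the 2 groups were paired is not given. Their deviations from the group means correlated at 0.581, 0.588, 0.588 and 0.451, values that include the difference between the sets. From the group and set means they correlated at 0.109, 0.109, 0.382 and 0.382. With 2 libraries per group and set, both values of a set are equal by construction, so these correlations cannot show a pairing. Depth per library (14.6 to 28.6 × 1e6 fragments) was implied from the FPKM confidence limits and covers counting error only. Libraries of 1 group differed by more than sampling noise, with chi-square per degree of freedom between 9.87 and 231. Intron numbers came from the release 6 annotation, and no coordinate was carried over. Alternatives were the block, sets and libraries left out, pseudocount, filter and scaling. No columns of other samples were met.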

Additional observations from a re-analysis of the deposited data

Results flagged for a closer look

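CG3491 in the controls was singled out because dsmCherry 4, at 0.433 FPKM, lay far from the other 3 controls for the range of its group. It was 1 of 62 groups examined, and chance alone would single out about 1 in 20.

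The change in set 2 minus the change in set 1 passed the interaction test (limma, adjusted p under 0.05) for 18 of the 31 named genes. Among genes that rose, it was negative for CG3491 (-0.86), CG13243 (-1.78), CG9336 (-2.43), CG7299 (-1.38), CG33970 (-2.08), CG9864 (-1.65), CG14961 (-1.51), t-cup (-1.84) and Tektin-A (-2.31), all of which rose more in set 1. Among genes that fell, it was positive for CG34330 (4.04), CG14795 (3.51), cu (0.90), CG7737 (2.12), Hsp27 (0.70), hoe1 (2.67), ImpL3 (2.36), CG6499 (1.17) and CG9629 (1.47), all of which fell more in set 1. Of 134 other list genes, 64 passed the same test.

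The S2 change minus the neuroblast change passed its test (limma over 12 libraries, adjusted p under 0.05) for 30 of the 31 named genes, barc being the exception. It was positive for Cyp6d2 (4.88), Taf12L (3.50), CG3491 (3.86), CG8620 (1.73), CG13243 (3.36), CG9336 (3.12), CG7296 (3.33), CG9865 (1.55), CG7299 (3.29), CG33970 (3.26), CG9864 (2.18), CG14961 (2.80), t-cup (2.86), CG15784 (1.23) and Tektin-A (2.89). It was negative for CG34330 (-4.42), CG14795 (-3.40), Hsp70Bb (-2.97), cu (-3.11), Hsp68 (-2.97), CG7737 (-2.85), Hsp26 (-3.23), Hsp70Bc (-3.16), Hsp27 (-2.80), Hsp22 (-4.56), Hsp70Ba (-3.10), hoe1 (-2.79), ImpL3 (-5.61), CG6499 (-2.67) and CG9629 (-2.63). Of 134 other list genes, 61 passed the same test. CG8620, CG15784 and CG9865 also rose in neuroblasts (1.72, 1.72 and 1.78), so their positive difference does not mark a rise confined to S2 cells. In the neuroblast controls CG34330 was at 0 FPKM, CG14795 at 0.12, cu at 0.099, hoe1 at 0.055, CG6499 at 0.011 and CG9629 at 0.064, so that hardly any fall could be measured there and the difference restates the S2 change.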

How the results depend on the processing

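Of the counts over all genes, 1556 higher and 1940 lower became 876 and 1154 without the block, 2082 and 3394 in set 1 alone, and 462 and 472 in set 2 alone; the causes were not tested, though the last 2 rest on 4 libraries each. With the replicate block (replicate numbers 1 to 4 in place of the set) they were 1303 and 1475. Leaving out 1 library gave 1114 to 1911 higher and 1279 to 2674 lower, with the widest counts without dsmCherry 4 (1911 and 2674). The change of barc ran from -2.34 to -2.06 in those fits. The pseudocount, the filters, the status rule, TPM and quantile scaling and the fit over 12 libraries kept both counts within 1.5 times. Of the named genes with the largest changes, 30 of 30 kept the call when any 1 library was left out, while 19 of 134 other list genes lost it in some such fit. The 30 were picked from these same libraries for large changes without overlap, so keeping the call is no separate support for them. Of those 134, 75 lost it in set 2 alone, 38 without the block, 12 with the replicate block, 14 without a filter, 8 with TPM and 5 with quantile scaling. In these fits none of the named genes changed sign. The balance of the counts did turn, to 1963 higher and 1462 lower with TPM and to 1995 and 1789 with no filter, and the median over all genes was 0.06 with TPM. The dsbarc libraries had the lower depth, and how far that limits low genes was not tested.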

Other observations

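Markers of other cell types were read in the same 8 libraries. The 3 lamellocyte markers measured (atilla, mys and msn) summed to between 289 and 489 FPKM in the controls and between 401 and 766 FPKM in dsbarc cells, so the groups overlapped over all 8 libraries. Most of the sum was mys, at 367 and 385 against 494 and 569 FPKM in set 1 and 219 and 276 against 308 and 314 FPKM in set 2. Within each set mys and atilla were thus higher in dsbarc cells, while msn overlapped in set 2. Crystal cell markers (lz and peb) summed to between 0.127 and 0.301 FPKM in the controls and between 0.445 and 1.03 FPKM in dsbarc cells, without overlap and near the lower end of what was measured. Neuronal markers summed to between 10.4 and 15.7 FPKM in the controls and between 16.3 and 18.9 FPKM in dsbarc cells, also without overlap, with elav the most abundant in most libraries. These markers did not rise together. In set 1 elav was lower in dsbarc cells (7.02 and 6.65 against 8.11 and 9.44 FPKM) and brp higher (9.70 and 10.3 against 2.28 and 1.56 FPKM). In set 2 elav was higher in dsbarc cells (14.4 and 16.1 against 9.79 and 13.4 FPKM), and over both sets it was not called. Neuroblast markers summed to between 2.02 and 2.24 FPKM in the controls and between 11.3 and 35.3 FPKM in dsbarc cells, most of it insc and again without overlap. Germline markers summed to between 2.28 and 3.75 FPKM in the controls and between 1.44 and 3.07 FPKM in dsbarc cells, with overlap. Glial markers summed to between 13.7 and 25.6 FPKM in the controls and between 15.6 and 20.6 FPKM in dsbarc cells, nearly all of it moody, with Eaat1 at up to 2.84 FPKM. Muscle markers summed to between 4.87 and 8.41 FPKM in the controls and between 8.44 and 10.5 FPKM in dsbarc cells, narrowly without overlap. Epithelial markers summed to between 7.70 and 14.6 FPKM and between 10.3 and 17.5 FPKM, with overlap. Fat body markers stayed under 1 FPKM in all 8 libraries. These sums were not tested.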
